A study of Mus musculus with 20 samples.

Results

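The double deletion of Magel2 and Ndn was compared with wild type in mouse hypothalamus over both times of day, and 84 genes outside chromosome 7 moved in the same direction by day and at night. The comparison set all 10 KO libraries against 9 of the 10 WT libraries, 19 of 20 in all, with time as a covariate. WT are C57BL/6J mice, and KO are mice that the series text calls double knockouts and the genotype field of the samples calls a knockdown of both genes. Mice were kept in light and dark phases of equal length and taken 6 h after light on (day) or 18 h after it (night), with 5 libraries per genotype and time. Hypothalamic total RNA, with ribosomal RNA removed, was made into strand-specific libraries and read from both ends. The sources used here give no age, sex, strain background of the KO mice or pooling, and the labels do not tie libraries to single animals. Each p therefore measures the spread between these samples, which may be technical.

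Magel2 and Ndn lie in the Prader-Willi region of chromosome 7 and are expressed from the paternal allele. MAGEL2 works with ubiquitin ligases in the sorting of endosomes, and necdin, the product of Ndn, is a protein of differentiated neurons. The hypothalamus holds the large neurons that make oxytocin and vasopressin, the neurons that govern feeding, and the body's central clock. Chromosome 7 was left out because genes beside a deletion can differ for reasons of the locus or of the strain.

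The labels were checked first. Ndn, in CPM scaled by TMM factors (the trimmed mean of M values), ran from 236 to 347 in the 9 WT libraries and from 0.248 to 1.01 in the 10 KO libraries. Magel2 ran from 15.6 to 19.4 in WT, and KO libraries held 0 to 7 of its counts. The library labelled WT_day 3 went against its label, with Ndn at 30.9, which is 11.3% of the WT mean, and Magel2 at 2.15, which is 12.4%. It entered no fit unless stated, and where it did it was fitted as WT. Its levels are given for the genes described library by library. In 6 libraries (WT_night 1, KO_day 1 and 2, KO_night 1, 2 and 3) the time field contradicts the title, and the title was followed. KO_day 5 has a title that gives no time, so its time is that of the time field and has no second label to check it by. It is counted among the 13 libraries with agreeing labels. The title of WT_day 5 repeats the number of WT_day 4, and both were kept as separate libraries. The 20 library totals ran from 32066289 to 48697647 counts. Defining markers of the hypothalamus, summed over 15 genes, stood in WT at 905 to 1059 CPM by day and 733 to 964 at night. In KO they stood at 948 to 1149 by day and 1011 to 1207 at night, so at night every KO library lay above every WT library. The sum includes Oxt and Avp, described below, and is no check of the tissue apart from their changes. Xist, which females express, was near 0 in every library.

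A gene passed at an adjusted p under 0.05 in the edgeR quasi-likelihood test of KO against WT, with Benjamini-Hochberg adjustment over the 22374 genes tested. Of 20689 tested genes outside chromosome 7, 93 passed (0.45%), and 66 of them rose (0.319%) and 27 fell (0.131%) in KO. On chromosome 7, 26 of 1685 passed (1.54%). All 93 genes had the same sign by day and at night, against 49.5% of all tested genes outside chromosome 7, but a gene that passes on the average of both times is likely to have it. To count as moving the same way at both times, a gene also needed an unadjusted p under 0.05 at each time. That left 84 genes (0.406%), 63 that rose and 21 that fell, while 1.43% of all tested genes met the sign and p conditions alone. The changes were small. The median rise was 0.21 on the log2 scale (1.15-fold) and the largest 0.54, and the median fall was -0.27 (1.2-fold) and the largest -1.45. With WT_day 3 included as WT, 107 genes passed and 98 moved the same way at both times, and 71 of the 83 members tested there passed.

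**Figure D1:**
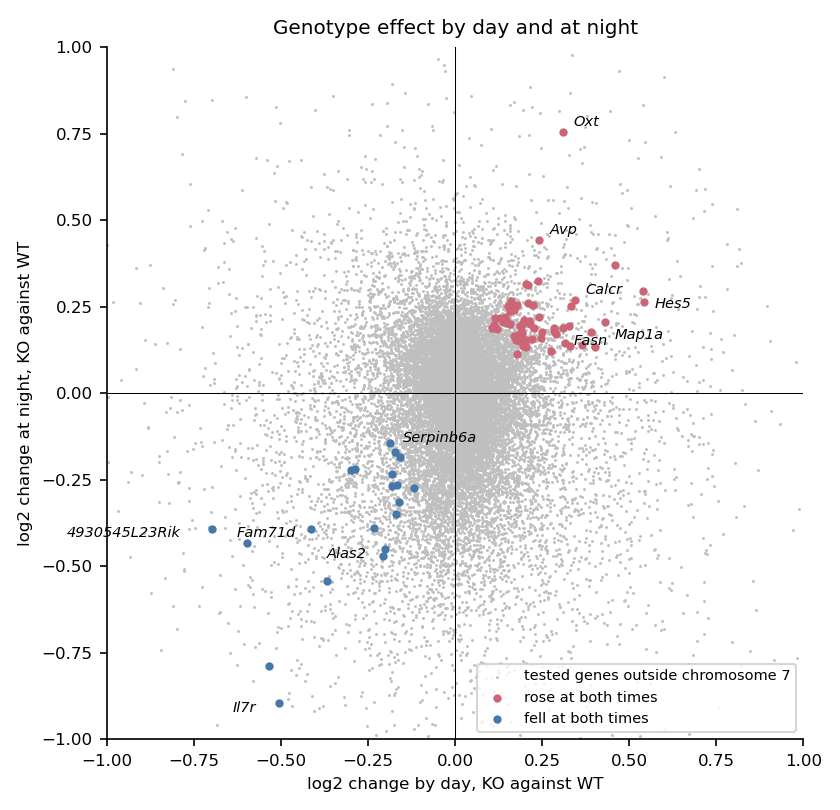
Log2 change of KO against WT by day (x axis) and at night (y axis) for tested genes outside chromosome 7 (grey) and for the 84 genes that moved the same way at both times (red rose, blue fell). Genes beyond 1 on either axis are not drawn, among them Dpep2nb at -1.45 over both times. The rule puts every coloured point in the lower left or the upper right field, and Oxt lies highest.

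The genes with the largest rises included neighbours on chromosome 2, Oxt and Avp, 3566 bases apart, which encode the hormones oxytocin and vasopressin. Oxt (ENSMUSG00000027301, chromosome 2, 130576173 to 130577054 in GRCm38) stood in WT at 192, 191, 203 and 234 CPM by day (libraries 1, 2, 4 and 5, in that order here and below) and at 169.9, 161, 153, 199 and 193 at night. In KO it stood at 235, 225, 250.4, 292 and 261 by day and at 250.4, 334, 274, 309 and 319 at night. At night every KO library lay above every WT library, and by day only KO_day 2 lay below the highest WT library. Oxt rose by 0.54 ± 0.0781 (log2 change ± SE, 1.46-fold), the smallest adjusted p of the 84 in edgeR (0.000896). The difference was 0.31 ± 0.0923 by day and 0.75 ± 0.0871 at night. The interaction of genotype and time had an unadjusted p of 0.00182 and an edgeR adjusted p of 0.115, so the times were not shown to differ. WT_day 3 held Oxt at 270.3, above the other WT_day libraries and inside the KO_day range, and with it included the change was 0.48 (adjusted p 0.0173). Oxt passed in each of the 37 alternatives, with changes from 0.41 to 0.59 and adjusted p from 2.16e-08 to 0.0214.

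Avp (ENSMUSG00000037727, chromosome 2, 130580620 to 130582554) stood in WT at 211, 204, 205 and 241 CPM by day and 185, 160.5, 148, 234 and 219.7 at night, and in KO at 287, 274, 246, 259 and 200.3 by day and 244, 269, 237, 303 and 244 at night. KO_day 5 had the lowest level by day of either genotype, and at night the groups did not overlap. Avp rose by 0.35 ± 0.08 (1.27-fold, edgeR adjusted p 0.0463), with 0.24 by day and 0.44 at night. WT_day 3 held it at 227, and with that library included the adjusted p was 0.0497. It passed in 3 of 19 fits that each left out 1 library, and its adjusted p over all alternatives ran from 0.00448 to 0.297. In bulk tissue, more cells of a type and more RNA per cell cannot be told apart, for these genes or any below.

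The promoters of the neighbours are shown because these genes rose together. Each is the stretch of 250 bases before the RefSeq start in GRCm38.p6, and capitals mark the motif searched on both strands. For Oxt (chr2:130575919-130576168, plus strand) it is AGGTCA, the half-site that nuclear receptors bind, found 185 bases before the start and, on the other strand, 166 bases before it. For Avp (chr2:130582589-130582838, minus strand) it is CACGTG, the E-box letters bound by CLOCK and BMAL1, found 139 bases before the start. The matches within a promoter share no bases. Of 32851 RefSeq promoters of this length, 14.02% hold AGGTCA and 6.02% hold CACGTG.
Oxt: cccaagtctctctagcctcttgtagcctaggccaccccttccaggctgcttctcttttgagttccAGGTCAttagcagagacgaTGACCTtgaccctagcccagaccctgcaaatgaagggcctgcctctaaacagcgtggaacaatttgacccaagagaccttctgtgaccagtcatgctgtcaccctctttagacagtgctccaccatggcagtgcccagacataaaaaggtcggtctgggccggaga
Avp: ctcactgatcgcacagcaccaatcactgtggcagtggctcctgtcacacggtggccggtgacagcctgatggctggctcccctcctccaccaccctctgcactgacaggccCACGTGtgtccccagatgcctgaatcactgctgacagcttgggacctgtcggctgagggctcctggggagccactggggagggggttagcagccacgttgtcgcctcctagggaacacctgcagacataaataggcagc

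In the oxytocin and vasopressin list, these 2 of 9 tested members rose, none fell, and 7 did not pass. The list's median change was 0.10, beside 0.00 over all tested genes, and 6 of the 9 were higher at both times. Otp, a homeobox factor needed for these neurons to form, did not pass, with a change of 0.24 ± 0.0665 (adjusted p 0.0814, 0.37 by day and 0.13 at night). In the list of hypothalamic identity genes 13 of 15 were higher, beside 50.5% of all tested genes outside chromosome 7, and 7 were higher at both times. The list's median was 0.11, and Oxt and Avp were the 2 that passed. Of the 25 feeding peptides and receptors none passed, at a median of 0.00. Npy, the appetite-driving neuropeptide Y, had a change of 0.34 ± 0.1 (adjusted p 0.0991).

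**Figure D2:**
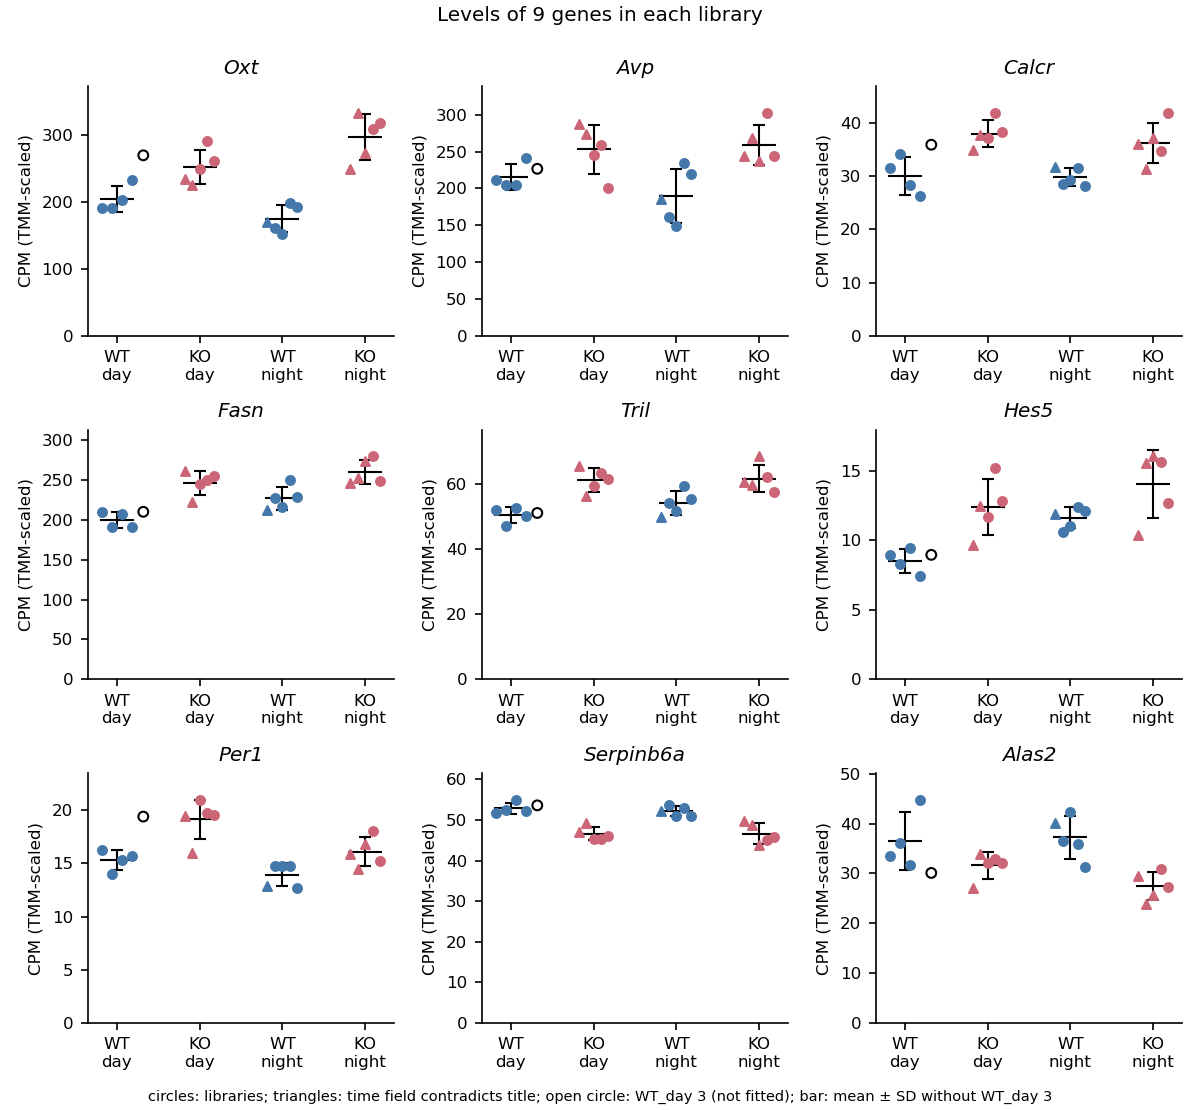
Level in CPM (y axis, from 0) of 9 of the genes in every library by genotype and time (x axis), WT in blue and KO in red, with the mean and SD of each group as a bar. Triangles are libraries whose time field contradicts the title, and the open circle is WT_day 3, which entered neither the fit nor the mean. For Oxt the 5 KO_night libraries lie between 250.4 and 334 and the 5 WT_night libraries between 153 and 199, and for Serpinb6a no KO library reaches the WT libraries.

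Calcr (ENSMUSG00000023964, chromosome 6, 3685680 to 3764714), the calcitonin receptor, which also forms amylin receptors, stood in WT at 31.6, 34.2, 28.3 and 26.2 CPM by day and 31.8, 28.6, 29.4, 31.7 and 28.2 at night. In KO it stood at 34.9, 37.7, 37.3, 42 and 38.3 by day and 36.2, 31.5, 37.2, 34.9 and 41.9 at night. The groups did not overlap by day, and at night only KO_night 2 lay inside the WT range. Calcr rose by 0.30 ± 0.052 (1.23-fold, edgeR adjusted p 0.00898), and it passed in all 37 alternatives, with adjusted p from 4.47e-05 to 0.0422. WT_day 3 held it at 36, and with that library included the change was 0.28 (adjusted p 0.0215).

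Gpr101, Hrh3 and Irs4 are named because of their values. Gpr101, an orphan receptor on the X chromosome, stood at 72.4 ± 4.85 in WT (SD, n = 9) and 84.3 ± 6.63 in KO (SD, n = 10) and rose by 0.22 ± 0.0462 (edgeR adjusted p 0.0394). Hrh3 encodes the histamine H3 receptor, which restrains transmitter release, and rose by 0.19 ± 0.0392 (adjusted p 0.0372), alike by day (0.18) and at night (0.19). Irs4, an insulin receptor substrate, rose by 0.19 ± 0.0439 (adjusted p 0.0431), with 0.27 by day and 0.12 at night. These genes passed in 4, 7 and 3 of the 19 leave-one-out fits.

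Fasn (ENSMUSG00000025153, chromosome 11, 120805846 to 120824547), fatty acid synthase, stood in WT at 209, 191, 208 and 191 CPM by day and 213, 227, 216, 250.2 and 229 at night, and in KO at 262, 223, 244, 249.8 and 255 by day and 246, 252, 274, 279.7 and 249 at night. By day the groups did not overlap, and at night WT_night 4 reached into the KO range. Fasn rose by 0.24 ± 0.0416 (1.18-fold, edgeR adjusted p 0.00898), and with WT_day 3, which held it at 210.1, by 0.24 (adjusted p 0.00653). It passed in 36 of 37 alternatives and missed without WT_night 1, 2 and 3 (adjusted p 0.0918). Srebf1, the transcription factor that switches on fatty acid synthesis, rose by 0.19 ± 0.041 (adjusted p 0.0415), and Abca2, a lipid transporter of myelinating cells, by 0.19 ± 0.0375 (adjusted p 0.0287). Both are named because of their values, and they passed in 4 and 9 of 19 leave-one-out fits.

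None of the 23 genes of cholesterol synthesis and uptake passed, but 20 were higher in KO, 19 of them at both times, with a median of 0.08. For this and the following lists, 50.5% of all tested genes outside chromosome 7 were higher. Srebf2, which switches on cholesterol synthesis, had a change of 0.13 ± 0.0335 (edgeR adjusted p 0.0748), and Mvk, mevalonate kinase, one of 0.21 ± 0.0582 (adjusted p 0.0819). All 11 oligodendrocyte markers were also higher, 8 of them at both times, with a median of 0.14, and none passed. Their summed level ran from 2166 to 2713 CPM in the 9 WT libraries and from 2320 to 3137 in KO. Myrf, the transcription factor of myelin genes, had a change of 0.23 ± 0.0571 (adjusted p 0.0687) and Cldn11, a protein of the myelin sheath, one of 0.20 ± 0.0543 (adjusted p 0.0815). All 10 astrocyte markers were higher, 6 of them at both times, with a median of 0.09. Their summed levels were 2603 to 3041 CPM in WT and 2713 to 3204 in KO. The part of these cell types in the rises of Fasn, Srebf1 and Abca2 was not tested.

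Tril (ENSMUSG00000043496, chromosome 6, 53815468 to 53820830), a co-receptor of toll-like receptors in glia, stood in WT at 52, 47, 52.4 and 50.1 CPM by day and 49.7, 54, 51.7, 59.3 and 55.3 at night. In KO it stood at 65.5, 56.3, 59.2, 63.3 and 61.3 by day and 60.4, 59.6, 68.4, 61.9 and 57.6 at night, with no overlap by day. Tril rose by 0.23 ± 0.0406 (edgeR adjusted p 0.0118), and in all 19 leave-one-out fits it passed, with adjusted p up to 0.0406. WT_day 3 held it at 51. It did not pass among the 13 libraries with agreeing time labels (adjusted p 0.096, over all alternatives 0.000104 to 0.116).

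Ncan, neurocan, a proteoglycan of the brain's matrix, rose by 0.23 ± 0.0439 (edgeR adjusted p 0.0209) from 64.9 ± 5.34 in WT (SD, n = 9) to 76.1 ± 5.03 in KO (SD, n = 10). Map1a, which binds microtubules, rose by 0.31 ± 0.0609 (adjusted p 0.0287), from 353 ± 54.1 to 432 ± 40.3. Celsr2, a cadherin of planar cell polarity, rose by 0.26 ± 0.0543 (adjusted p 0.0389), with 0.40 by day and 0.13 at night. Ubqln2, which carries proteins to the proteasome, rose by 0.28 ± 0.0534 (adjusted p 0.0278). Nptxr, the neuronal pentraxin receptor, named after its values were seen, rose by 0.21 ± 0.0396 (adjusted p 0.0208). In leave-one-out fits Ncan and Nptxr passed in 13 each of 19, Ubqln2 in 11, Map1a in 10 and Celsr2 in 8. Ppp1r3e, which targets a phosphatase to glycogen, rose by 0.29 ± 0.0649 (adjusted p 0.0425) and Fam84b by 0.23 ± 0.0528 (adjusted p 0.0463), in 3 and 2 of 19 fits.

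Hes5 (ENSMUSG00000048001, chromosome 4, 154960923 to 154962371), a repressor that Notch signalling switches on, stood in WT at 8.91, 8.27, 9.45 and 7.44 CPM by day and 11.9, 10.6, 11, 12.4 and 12.1 at night. In KO it stood at 9.62, 12.5, 11.6, 15.2 and 12.8 by day and 10.3, 15.6, 16, 15.6 and 12.6 at night. By day the groups did not overlap, and at night KO_night 1 lay below every WT library. WT_day 3 stood with WT at 8.94. Hes5 rose by 0.39 ± 0.0871 (1.31-fold, edgeR adjusted p 0.0415), passing in 5 of 19 leave-one-out fits and with adjusted p from 0.00258 to 0.195 over all alternatives. Gm20421 lies on the opposite strand of Hes5, and its rise of 0.41 may count the same reads. The promoter of Hes5 is shown for the letters TGGGAA, which the Notch effector RBPJ binds, marked in capitals 82 bases before the RefSeq start and, on the other strand, 226 bases before it (chr4:154960673-154960922, plus strand, GRCm38.p6). The letters stand in 21.6% of the 32851 promoters. Of the 14 Notch genes Hes5 alone passed, and 11 were higher, 7 of them at both times, at a median of 0.10.
Hes5: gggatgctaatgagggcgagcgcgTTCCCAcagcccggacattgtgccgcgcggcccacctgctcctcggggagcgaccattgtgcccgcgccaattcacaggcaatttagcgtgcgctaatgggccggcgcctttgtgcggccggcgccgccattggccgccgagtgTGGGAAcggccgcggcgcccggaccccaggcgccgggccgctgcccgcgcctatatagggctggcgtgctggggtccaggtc

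Clock repressors Per1 and Bhlhe41 were the 2 of 19 clock genes that passed, and both rose. Per1 (ENSMUSG00000020893, chromosome 11, 69095217 to 69109960) stood in WT at 16.2, 14, 15.3 and 15.7 CPM by day and 12.9, 14.7, 14.7, 14.8 and 12.6 at night, and in KO at 19.5, 16, 21, 19.7 and 19.6 by day and 15.9, 14.5, 16.8, 18 and 15.2 at night. At each time 1 KO library, KO_day 2 and KO_night 2, lay inside the WT range. Per1 rose by 0.26 ± 0.0544 (edgeR adjusted p 0.0394), and it did not pass with WT_day 3 included, where Per1 stood at 19.4 and the change was 0.22 (adjusted p 0.0732). Taking time from the time field also ended the call (adjusted p 0.0849; over all alternatives 0.00253 to 0.163). Bhlhe41 rose by 0.15 ± 0.0335 (adjusted p 0.0394), from 45.2 ± 1.31 (n = 4) to 48.9 ± 3.15 by day and from 41.8 ± 1.08 to 48 ± 2.03 at night (SD, n = 5). It passed in 16 of 37 alternatives and was lost with the time field (adjusted p 0.0538) and among libraries with agreeing time labels (0.24, over all alternatives 0.00341 to 0.24). Over the clock list the median was 0.06, with 10 genes higher and 4 lower at both times. Npas2, a partner of BMAL1, had a change of -0.28 ± 0.079 (adjusted p 0.0864), with -0.11 by day and -0.44 at night.

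Among 6 other genes of the MAGE family, to which Magel2 and Ndn belong, all were higher, 4 of them at both times, and 1, Magee1, passed. Magee1, on the X chromosome, rose by 0.21 ± 0.0407 (edgeR adjusted p 0.0287), from 127 ± 9.15 in WT (SD, n = 9) to 146 ± 9.33 in KO (SD, n = 10), in 10 of 19 leave-one-out fits. With WT_day 3 included 5 of the 6 were higher. Of 14 genes of the MAGEL2 ligase, WASH and retromer none passed, at a median of 0.04, and of 7 necdin partners none, at -0.07. In the 28 tested genes of a list of imprinted genes elsewhere than chromosome 7 the median was 0.05, and 1 rose, which is Calcr. Imprinting of genes outside that list was not examined. Dlk1, an imprinted gene of growth control, had a change of 0.19 ± 0.051 (adjusted p 0.0805).

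Wdr6, Serpinb6a, C230088H06Rik and Gm30015 separated KO from WT over all 19 libraries, against 0.0387% of tested genes outside chromosome 7, 4 of the 84 members. Gm30015 (ENSMUSG00000111334, chromosome 9, 43716841 to 43746100), a processed transcript opposite Nectin1, stood in WT at 3.92, 3.66, 4.34 and 4.16 CPM by day and 4.52, 5.02, 4.71, 4.78 and 4.66 at night. In KO it stood at 5.58, 5.27, 5.62, 5.93 and 5.12 by day and 6.03, 5.16, 6.76, 7.45 and 5.46 at night, every library above every WT library. WT_day 3 held it at 4.57. It rose by 0.41 ± 0.0665 (edgeR adjusted p 0.00461) and passed in all 37 alternatives, with adjusted p from 1.26e-05 to 0.037. Wdr6, a WD-repeat protein named after its values were seen, rose by 0.18 ± 0.036 (adjusted p 0.0287). Its level was 399.9 ± 19 in WT (SD, n = 9) and 455 ± 22 in KO (SD, n = 10). Within each time, 10 of the 84 genes did not overlap, beside 0.0677% of all tested genes. The members were chosen by p on these same libraries, so both counts without overlap follow in part from the choice.

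Of the 27 genes that fell 1, Alas2, is in a list. Serpinb6a (ENSMUSG00000060147, chromosome 13, 33917918 to 34002794), an intracellular inhibitor of proteases, stood in WT at 51.8, 52.5, 54.9 and 52.2 CPM by day and 52.2, 53.6, 50.9, 53 and 51 at night. In KO it stood at 47.1, 49.3, 45.4, 45.4 and 46.2 by day and 49.8, 48.7, 43.8, 45.1 and 45.8 at night, every library below every WT library. It fell by 0.17 ± 0.0302 (1.13-fold, edgeR adjusted p 0.0115), alike by day (-0.17) and at night (-0.17), and WT_day 3 stood with WT at 53.6. The lincRNA C230088H06Rik (chromosome 4, 147018235 to 147492201) ran from 17.9 to 19.5 in WT and from 12.7 to 17.8 in KO, without overlap, with WT_day 3 inside the KO range at 17, and fell by 0.27 ± 0.047 (adjusted p 0.0118). With the trends of gene length and GC content removed, the change was -0.11 for Serpinb6a (adjusted p 0.158, range over all alternatives 1.43e-05 to 0.185) and -0.09 for C230088H06Rik (adjusted p 0.435, range 7.71e-05 to 0.516).

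The antisense gene 4930545L23Rik (ENSMUSG00000085247, chromosome 2, 135169573 to 135215616) lies opposite Plcb1. It stood in WT at 15.4, 15.2, 15.4 and 16.1 CPM by day and 12.5, 11, 13.4, 9.65 and 10.5 at night, and in KO at 10.2, 9.89, 10.3, 7.28 and 9.98 by day and 9.43, 7.79, 6.48, 10.3 and 9.92 at night. By day the groups lay far apart, and at night WT_night 4 reached into the KO range. WT_day 3 stood near WT at 14.5. It fell by 0.54 ± 0.0866 (1.45-fold, edgeR adjusted p 0.0044). Plcb1, phospholipase C beta, fell by 0.25 ± 0.0584 (adjusted p 0.049), from 372 ± 35 in WT (SD, n = 9) to 314 ± 31.9 in KO (SD, n = 10). The strand setting of the counts is not given in the sources used here, so reads of a gene and of its partner on the opposite strand cannot be told apart.

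Alas2, which makes the first enzyme of heme synthesis in red cells, stood in WT at 33.6, 36.1, 31.6 and 44.7 CPM by day and 40.2, 36.5, 42.3, 36 and 31.2 at night, and in KO at 27, 33.8, 32.1, 32.9 and 32.2 by day and 29.4, 23.9, 25.8, 30.9 and 27.3 at night. The groups overlapped by day and not at night. Alas2 fell by 0.33 ± 0.0714 (edgeR adjusted p 0.0394), and it did not pass with WT_day 3 included, which held it at 30.1 (adjusted p 0.0533, range over all alternatives 0.00198 to 0.279). It overlaps Apex2, a DNA repair gene with a change of -0.32 that lay just outside the threshold. The summed level of the 3 blood markers, of which Alas2 is one, ran from 123 to 282 CPM in WT and from 90.8 to 265 in KO, and its part in the fall was not tested.

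Fam71d fell by 0.40 ± 0.0863 (edgeR adjusted p 0.0394) with no overlap at either time. Zfp808, a zinc finger protein, fell by 0.34 ± 0.0729 (adjusted p 0.0394), Zfp182, another, by 0.24 ± 0.0539 (adjusted p 0.0415), and Sfmbt2, a Polycomb protein, by 0.23 ± 0.0514 (adjusted p 0.0427). Mcmdc2, a relative of the replicative helicase that acts in meiosis, fell by 0.32 ± 0.0693 (adjusted p 0.0415), from 11.2 ± 1.28 (SD, n = 9) to 9.01 ± 0.98 (SD, n = 10). Lama2, a laminin of basement membranes, fell by 0.20 ± 0.0422 (adjusted p 0.0389), and Acss3, a mitochondrial acyl-CoA synthetase, by 0.21 ± 0.048 (adjusted p 0.0463). All 7 markers of meninges and fibroblasts, cells that make laminins, were lower in KO (median -0.18, with 0.19 by day and -0.56 at night, none passed). Only 1 of them was lower at both times. The summed level of the 7 markers ran from 54.7 to 129.8 CPM in WT and from 32.3 to 116 in KO, and their part in the fall of Lama2 was not tested. Ankrd45 fell by 0.17 ± 0.037 (adjusted p 0.0394), and Ipcef1, opposite the opioid receptor gene Oprm1, by 0.16 ± 0.037 (adjusted p 0.0427).

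The rarest of the named members, Il7r and Dpep2nb, were named after their values were seen. Il7r, the interleukin-7 receptor, fell by 0.69 ± 0.154 (edgeR adjusted p 0.0415), from 0.862 ± 0.213 CPM in WT (SD, n = 9) to 0.547 ± 0.17 in KO (SD, n = 10), and at night the groups did not overlap. Dpep2nb had the largest fitted fall, but its KO levels of 0.026 to 0.153 CPM rest on a few counts, since 3 counts are 0.0621 to 0.0915 CPM in these libraries. In leave-one-out fits the named falls other than Serpinb6a, C230088H06Rik and 4930545L23Rik passed in 4 to 9 of 19. Of the members not described one by one, 40 rose by 0.14 to 0.41, and 29 of these are protein coding. The other 5 fell, with changes from -0.66 to -0.22, and none of them is protein coding. Their adjusted p in edgeR ran from 0.0208 to 0.0470. Just inside the threshold lay Gm16731 (adjusted p 0.0470), Agap2 (0.0486) and Plcb1 (0.0490), and just outside lay Apex2, Ano8 and Bcan (each 0.0509).

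Changes by day and at night differed in size for few members. The interaction of genotype and time had an unadjusted p under 0.05 in 5 of the 84, Oxt, Celsr2, Ubqln2, Gm13610 and Cngb1, beside 19.2% of all tested genes, and in none after adjustment in edgeR. The rule favours genes with like changes, so this count follows in part from it. Over all 20689 genes the changes by day and at night had a correlation of -0.01, as a description across genes, which are not independent and share the scaling. Of the 97 genes with a day p under 0.001, 25 differed in the same direction at night at an unadjusted p under 0.05 and 3 in the opposite direction. Their share with such a p at night was 28.9%, beside 28.7% of all tested genes. Of the 718 genes with a night p under 0.001, 33 differed in the same direction by day at an unadjusted p under 0.05 and 16 in the opposite direction, a share of 6.82% beside 8.41% of all tested genes. At a day p under 0.05, 295 of 1739 genes differed in the same direction at night at that p and 190 in the opposite direction.

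Of the 84 members, 65 are protein coding, and 41 overlap another expressed gene. Of the genes described, Map1a, Tril, Hrh3, Srebf1, Bhlhe41, Wdr6, Fam84b, Serpinb6a, Acss3, Mcmdc2 and Ankrd45 also overlap an expressed gene on the opposite strand, and their own reads are uncertain to that extent. Pairs of passing genes within 1 Mb of each other number 16, each with a shared direction, and 5 of these pairs overlap. Rising genes were rich in GC and falling genes were long. The 66 that rose had a median GC content of 56.5% in the longest transcript and the 27 that fell 43.3%, beside 49.0% of all tested genes, and 59 of the 66 lay above that median. The falls spanned a median of 46.0 kb and the rises 11.3 kb, beside 17.9 kb, and 26 of the 27 falls lay above that median. Libraries also differed along these properties. The correlation, across 13088 genes, of a library's deviation from the mean with GC content ran from -0.27 to 0.05 in WT (median -0.16) and from -0.20 to 0.53 in KO (median 0.11). With log2 gene span it ran from -0.20 to 0.59 in WT (median 0.06) and from -0.52 to 0.36 in KO (median -0.18).

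**Figure D3:**
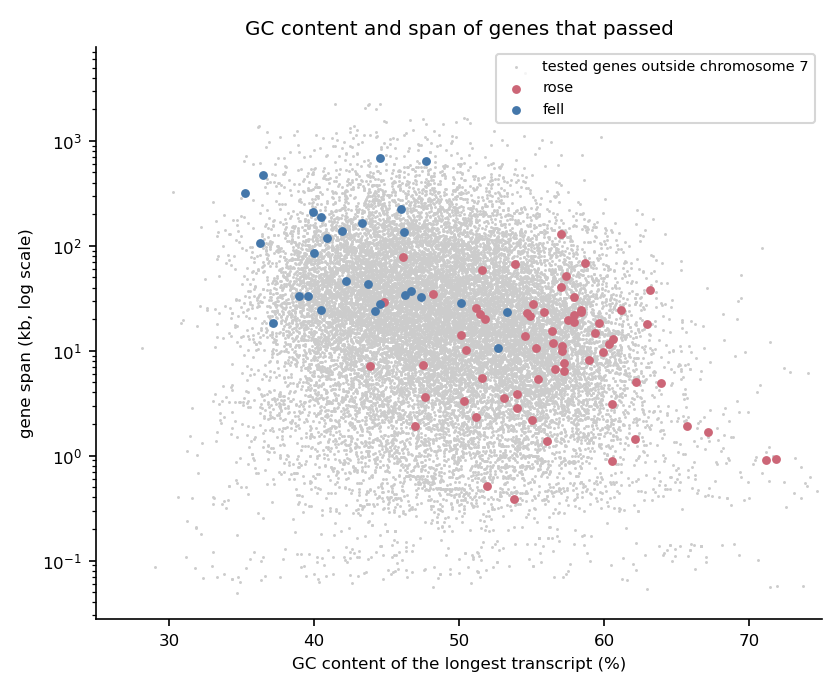
GC content of the longest transcript in % (x axis) and gene span in kb on a log scale (y axis) of tested genes outside chromosome 7 (grey), and of those that rose (red) or fell (blue) in KO. Median GC content is 56.5% for the rises and 43.3% for the falls, and most falls lie above the median span of 17.9 kb.

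With a GC trend removed from each library, 18 genes passed, 16 of them members, and with trends of GC and gene length removed 80 passed, of which 34 are among the 93. All 84 members, which were chosen on these same libraries, kept the direction of their change over both times under both settings. With both trends removed, 81 of the 84 had the same sign by day and at night. In that setting 31 passed, and the changes shrank to a median of 0.77 times their size. Oxt (0.46, edgeR adjusted p 0.00052), Calcr (0.35, 0.000533), Gm30015 (0.43, 0.00457), Fasn (0.19, 0.0123), Tril (0.17, 0.0384) and 4930545L23Rik (-0.51, 0.00869) still passed. Avp (0.23, 0.105), Hes5 (0.29, 0.124), Per1 (0.19, 0.0956) and Plcb1 (-0.07, 0.497) did not. Lama2 moved to -0.03 (adjusted p 0.757). The settings with these trends were chosen after seeing the data, and the part of GC content and length in the changes was not tested beyond them.

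Single libraries set how many genes passed. Over the 84 members, KO_day 2 lay nearer the KO mean of its time at 44 and nearer the WT mean at 40, the fewest near KO of the KO libraries. The members were chosen on these same libraries, so the sides are a description. WT_night 4 lay nearer the KO mean at 33, and the other WT libraries in the fit at 1 to 12. KO_day 4 and KO_night 3 lay nearer the KO mean at all 84. WT_day 3 lay nearer the mean of the other WT_day libraries at 58 members and nearer that of KO_day at 26. Among the 63 rises these numbers were 48 and 15, and among the 21 falls 10 and 11. Without KO_day 2, 555 genes outside chromosome 7 passed, and without WT_night 4, 206. Without WT_day 2, WT_night 1, KO_day 4 or KO_night 3 only 8 passed in each fit, without WT_day 5 or KO_day 1 13, and without WT_night 2 15. The count was 19 without KO_day 5, 20 without WT_day 1 or WT_night 3, 21 without WT_night 5, 42 without KO_night 2, 48 without KO_night 4 and 60 without KO_night 1. It stayed within 1.5 times of 93 without WT_day 4 (121), KO_day 3 (64) or KO_night 5 (74). The 8 genes that passed in all 19 fits are Oxt, Gm30015, Calcr, Fasn and Tril, which rose, and Serpinb6a, C230088H06Rik and 4930545L23Rik, which fell.

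**Figure D4:**
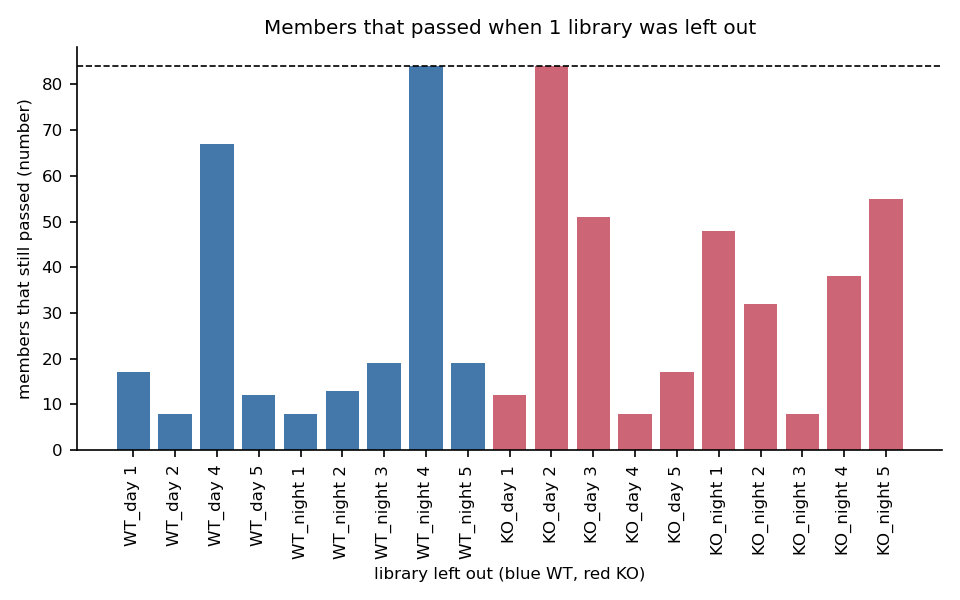
Number of the 84 members that still passed (y axis, from 0) when the library on the x axis was left out, WT in blue and KO in red, with 84 as a dashed line. All 84 remained without WT_night 4 or KO_day 2, and 8 without WT_day 2, WT_night 1, KO_day 4 or KO_night 3.

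The counts also differed with the choice of time labels. With time taken from the time field, 20 genes passed and 13 moved the same way at both times, and among the 13 libraries whose labels agree 25 passed and 23 moved so. Of the 84 members 17 and 15 passed, and all 84, which were chosen on these libraries, kept their direction under both, at each time. The 13 libraries are also fewer than the 19 of the main fit, and of KO_night they hold only libraries 4 and 5. Labels and number of libraries therefore cannot be told apart there. Among those 13 libraries Oxt had a change of 0.58 (edgeR adjusted p 0.00456), Calcr 0.38 (0.0158), Fasn 0.26 (0.0363) and Hes5 0.48 (0.0336), and Avp did not pass (0.30, 0.297). Without WT_night 1, 2 and 3, whose correlations with gene span were 0.28 to 0.59, beside 0.35 in KO_day 2 and 0.36 in KO_day 3, 6 genes passed, 5 at both times, and 4 of the 84 members were among them.

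**Figure D5:**
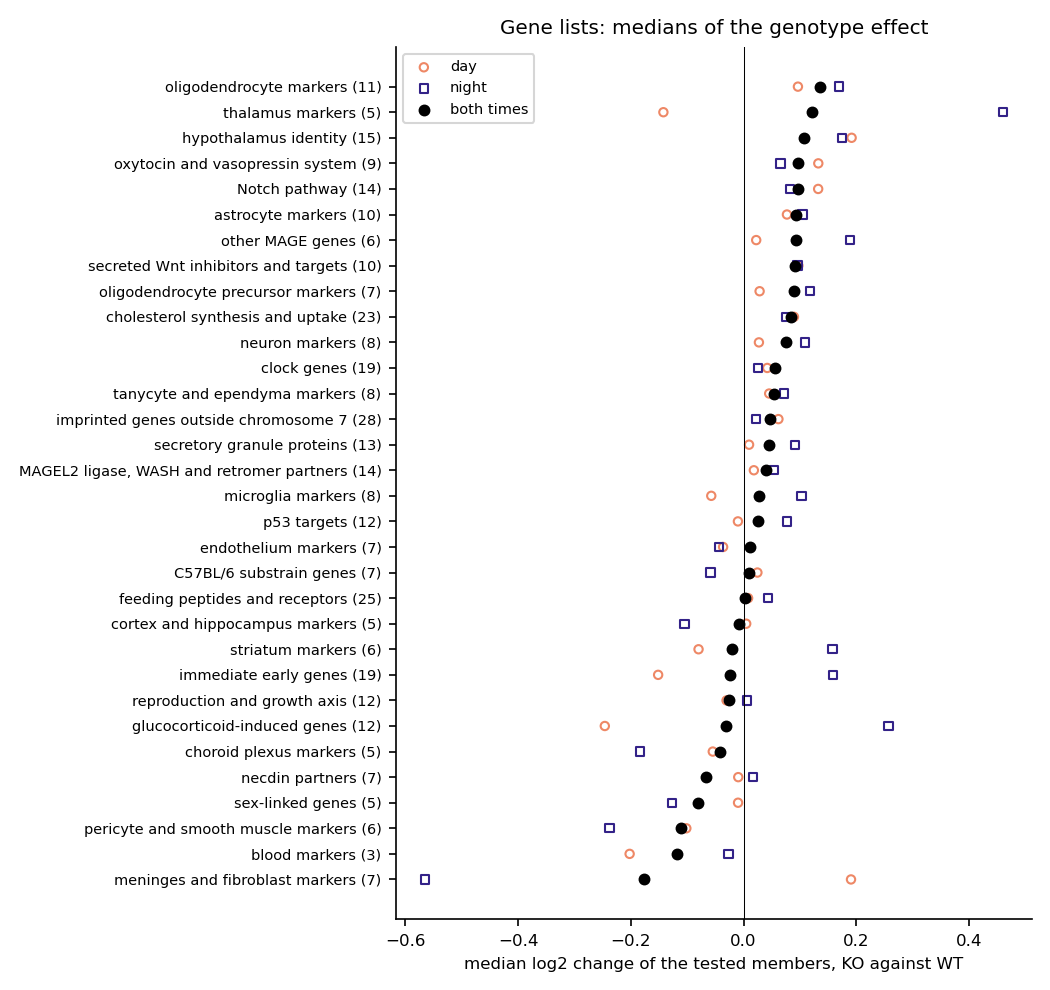
Median log2 change of the tested genes of each list (x axis; number of genes in brackets), over both times (black), by day (open circles) and at night (open squares). Oligodendrocyte markers stand highest at 0.14 and meninges markers lowest at -0.18, and the pituitary list (-0.96) lies beyond the axis and is not drawn.

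Lists of other cells and tissues were read beside these changes. Medians were 0.07 for 8 neuron markers, 0.09 for 7 precursors of oligodendrocytes, 0.03 for 8 microglia markers and 0.01 for 7 endothelium markers, and none of their genes passed. The 6 pituitary markers were lower in KO at a median of -0.96, with -2.16 by day and -0.06 at night, and none passed. Only 2 of the 6 were lower at both times. Their summed level ran from 22.1 to 778 CPM in WT_day and 5.43 to 151 in WT_night. In KO it ran from 13.7 to 49.9 by day and 4.97 to 268 at night. Thalamus markers had a median of 0.12, cortex and hippocampus markers -0.01 and striatum markers -0.02, and none of these genes passed. No list's median changed sign under size-factor (RLE) scaling or with library totals alone, where the median of all tested genes stayed at 0.00. The libraries with agreeing time labels hold only KO_night 4 and 5 of the KO_night group. In that set of libraries the median was -0.17 for the thalamus list, 0.07 for striatum and -0.07 for microglia. It was -0.06 for endothelium, -0.41 for meninges and -1.83 for pituitary. Without WT_night 1, 2 and 3 it was -1.63 for pituitary and -0.02 for microglia.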

How the data were processed

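The authors deposited unnormalized gene counts. The submitters' processing notes name HISAT2, featureCounts and mm10. Versions, annotation and strand setting are not given in the sources used here. The deposited table of WT_night 3 separates its columns by tabs where the others use commas, and holds the same kind of counts. Of 53801 genes 53706 matched GENCODE M21 (GRCm38), which gave symbols, positions and overlaps. Promoters are from RefSeq.

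Counts of 19 libraries were fitted with edgeR 4.0.16 in R 4.3.3 (TMM, filterByExpr with a minimum count of 10, quasi-likelihood F-test) with time and genotype, and day, night and interaction contrasts came from 4 group means. BH adjustment ran over 22374 genes. The common biological coefficient of variation was 0.0994. Libraries nearer one mean were counted on log2(CPM + 0.01). The test was checked on simulated counts drawn independently for each gene and library. They held no GC or length trends between libraries, so the check does not cover such trends.

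The members and lists were chosen with earlier results of these data known. Named are the 12 largest rises and 12 largest falls among the 84 whose mean CPM reached 1 and whose symbol is no clone name, list genes that passed, up to 3 others per list with an adjusted p under 0.1, and the 8 genes that passed every leave-one-out fit. Other genes were named after their values were seen. 1 result that this rule names is not reported here. Alternatives covered scaling, filter, time labels, GC and length trends, DESeq2 1.42.0 and library choice. Depth was 32066289 to 48697647 counts.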

Additional observations from a re-analysis of the deposited data

Results flagged for a closer look

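Among 164 groups of named genes and libraries, 9 held a library far from the others of its group, where chance flags about 1 in 20. KO_day 2 was low for Map1a, at 346 CPM beside 420 to 449 in the other KO_day libraries, and for Celsr2, at 70.3 beside 82.6 to 87.4. WT_night 5 was high for Fam71d, at 4.75 beside 3.71 to 3.99, and for Ankrd45, at 33.4 beside 30.5 to 31.3, and low for Il7r, at 0.553 beside 0.807 to 0.905. KO_night 3 was low for Zfp808, at 6.06 beside 7.51 to 7.88. KO_day 1 was low for Alas2, at 27.0 beside 32.1 to 33.8. KO_day 4 was low for 4930545L23Rik, at 7.28 beside 9.89 to 10.3. WT_day 1 was low for Dpep2nb, at 0.128 beside 0.369 to 0.380. For Zfp808, Alas2 and 4930545L23Rik the distant library lay further from WT, and for Map1a, Celsr2, Il7r and Dpep2nb it lay on the side of the other genotype.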

How the results depend on the processing

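All 84 genes, where tested, kept the direction of their change over both times in each of the 37 alternatives. The alternatives refit libraries on which the members were chosen, so this follows in large part from the choice. The number that passed moved widely. Beside 93 genes that passed and 84 that moved the same way at both times, the counts were 21 and 21 with library totals alone, 54 and 51 with a minimum count of 50, 20 and 13 with the time field, and 25 and 23 with agreeing time labels. They were 23 and 21 with genotype alone, 18 and 18 with a GC trend removed, 6 and 5 without WT_night 1, 2 and 3, and 577 and 241 with DESeq2. The averaged fit of 4 group means passed 156. An unadjusted p under 0.01 at each time left 35. Leaving out 1 library at a time gave 8 to 555 that passed and 8 to 294 at both times, and the cause was not tested. RLE scaling, no filter, WT_day 3 included, length trends and both trends together kept both counts within 1.5 times. With the replicate block 54 passed and 52 moved the same way, and with the block and both trends removed 26 and 26. Deviations of same-numbered libraries correlated from -0.29 to 0.51 in 27 pairs, 6 over 0.1. Those of differently numbered libraries correlated from -0.52 to 0.43 in 108 pairs, 29 over 0.1. Of 19 libraries 3 correlated best with their own number. Libraries also deviate along GC content and gene span, so these values cannot decide whether the numbers mark pairs. Calcr, Gm30015 and Oxt passed in all 37 alternatives.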

Other observations

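Some lists had medians of opposite sign by day and at night. For 19 immediate early genes, which neuronal activity switches on, the median was -0.15 by day and 0.16 at night, and for 12 genes that glucocorticoids induce it was -0.25 and 0.26. No gene of either list passed over both times. Ier5, an immediate early gene, was the one nearest to it, with a change of 0.19 ± 0.0487 (edgeR adjusted p 0.0768, 0.16 by day and 0.21 at night). The glucocorticoid list summed to 548 CPM in WT_day 3, above the range of 337 to 417 in the other WT_day libraries. For the 5 thalamus markers the medians were -0.14 by day and 0.46 at night, and for the 7 meninges markers 0.19 and -0.56.

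Of 10 secreted Wnt inhibitors and targets, 9 were higher in KO, beside 50.5% of all tested genes outside chromosome 7, and 7 were higher at both times. The median was 0.09, and none passed. Wif1, which binds Wnt proteins outside the cell, had a change of 0.35 ± 0.0857 (edgeR adjusted p 0.0613), with 0.45 by day and 0.26 at night. The list summed to 72.3 to 79.2 CPM in WT and 78.3 to 87.8 in KO. Cspg4, a marker of oligodendrocyte precursors, had a change of 0.21 ± 0.0509 (adjusted p 0.0618), and Gad1, which makes GABA, one of 0.15 ± 0.0398 (adjusted p 0.0815). Prlr, the prolactin receptor, had -0.03 by day and -0.46 at night (adjusted p over both times 0.097). Sesn2, a p53 target, had a change of 0.22 ± 0.0592 (adjusted p 0.0809).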
